A study of Mus musculus with 26 samples.

Results

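Of 18441 CTCF motif matches with methylation reads inside CTCF M-ChIP peaks of mouse embryonic stem cells (mESC), 14408 carried 10 or more bisulfite reads at their cytosines, and 970 of these were methylated on 60% or more of the reads. These 970 highly methylated CTCF-bound motifs were chosen from the methylated and unmethylated reads of the merged CTCF M-ChIP table, so their methylation is a description and was not tested. They were set beside 2609 motifs at 20 to under 60% (intermediate) and 10829 motifs under 20% (low), all with 10 or more reads.

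The samples used here were mESC of the KH2 line, pluripotent cells grown on feeder cells that were depleted by pre-plating before use, and neither genotype nor drug treatment differed between them. Samples of Klf4-/- cells, with or without WT or R462A mutant KLF4, were not used here. In M-ATAC, Tn5 loaded with methylated adaptors cuts open chromatin and the tagged DNA is bisulfite converted, so that accessibility and cytosine methylation are read from the same fragments (4 samples). CTCF M-ChIP does the same on chromatin pulled down with an antibody to CTCF (2 samples). The unconverted controls, aliquots of the tagged DNA taken before conversion, are called M-ATAC-NC and M-ChIP-NC, ATAC and CTCF ChIP are the standard assays with Nextera transposase, each with 2 samples, and RNA-seq of 2 samples was given as 1 merged value per gene. Nothing in the labels says that replicates came from separate cultures, so the spread between them may be technical.

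CTCF is a zinc finger protein that binds insulators and the anchors of chromatin loops through a long motif, and it holds cohesin at many of them. Methylation of a CpG inside the motif is known to weaken CTCF binding at some sites, the classic case being the imprinted H19/Igf2 locus, where CTCF binds the unmethylated maternal copy. In mouse, many CTCF motifs were spread by short interspersed repeats of the B2 family.

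The 19-base motifs were read from the deposited list of motif matches, and all 18441 were identical to the reference sequence of GRCm38 (mm10). They are shown 5′ to 3′ along the motif strand, with CpGs in capitals. The first set holds the most frequent sequences among the highly methylated motifs, which share the 12 bases ccagaagagggc at motif positions 4 to 15, with the number of loci in the text after it.
Repeated motif 1: aggccagaagagggCGtca
Repeated motif 2: aggccagaagagggCGctg
Repeated motif 3: aggccagaagagggCGcca
Repeated motif 4: actccagaagagggCGcca
The second set holds the 5 motifs with the highest lower bound of the 95% Wilson interval of methylation, named by their nearest or host gene.
n-R5s175, chr5:119266743-119266761, minus strand: aggccagaagagggCGtCG
Gcnt3, chr9:70040775-70040793, plus strand: tagcctCGCGaggacacta
Il1r1, chr1:40294100-40294118, minus strand: aggccagaagggggCGgca
Myh14, chr7:44617479-44617497, minus strand: gcaccagaagagggCGtca
Poc1a, chr9:106307124-106307142, plus strand: aggccagaagaggcCGtCG
The third set holds 3 tandem motifs inside an intron of Ctcfl, the gene of the CTCF paralog that is active in male germ cells.
Ctcfl motif 1, chr2:173097484-173097502, minus strand: gagcctgtaggtggCGctg
Ctcfl motif 2, chr2:173097516-173097534, minus strand: gaacctgtaggtggCGctg
Ctcfl motif 3, chr2:173097548-173097566, minus strand: gagcctgtaggtggCGctg

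The highly methylated motifs held 11617 methylated reads among 16151, at 2167 distinct cytosines. Of the motifs, 54 overlap another, and sums over motifs count shared reads once for each motif, which gives 11870 of 16512. Their reads ran from 10 to 86 per motif with a median of 15, against a median of 25 for the motifs of low methylation. Median methylation was 70.2%, 433 motifs lay under 70%, 244 lay at 80% or more, and 14 were methylated on every read. At this depth the value of a single motif is coarse: the lower bound of the 95% Wilson interval was over 50% for 354 motifs and over 60% for 131. The table merges replicates, so no spread between samples can be given, and the intervals cover counting error only. A read across several CpGs of a motif counts for each. For the 154 highly methylated motifs with 2 or more CpGs the intervals may thus be too narrow.

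The limit of 60% did not fall at a gap in the distribution. Just inside it, the motif near Spry2 had 18 methylated reads of 30 (60%, 42.3 to 75.4), the motif in B3glct also 18 of 30, and the motif near Gm16074 had 15 of 25. Just outside, motifs in Spop and Nkain1 each had 22 methylated reads of 37 (59.5%, 43.5 to 73.7), and the motif near Ncmap had 19 of 32 (59.4%). A further 1260 motifs under 60% had an interval reaching above 60%.

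**Figure D1:**
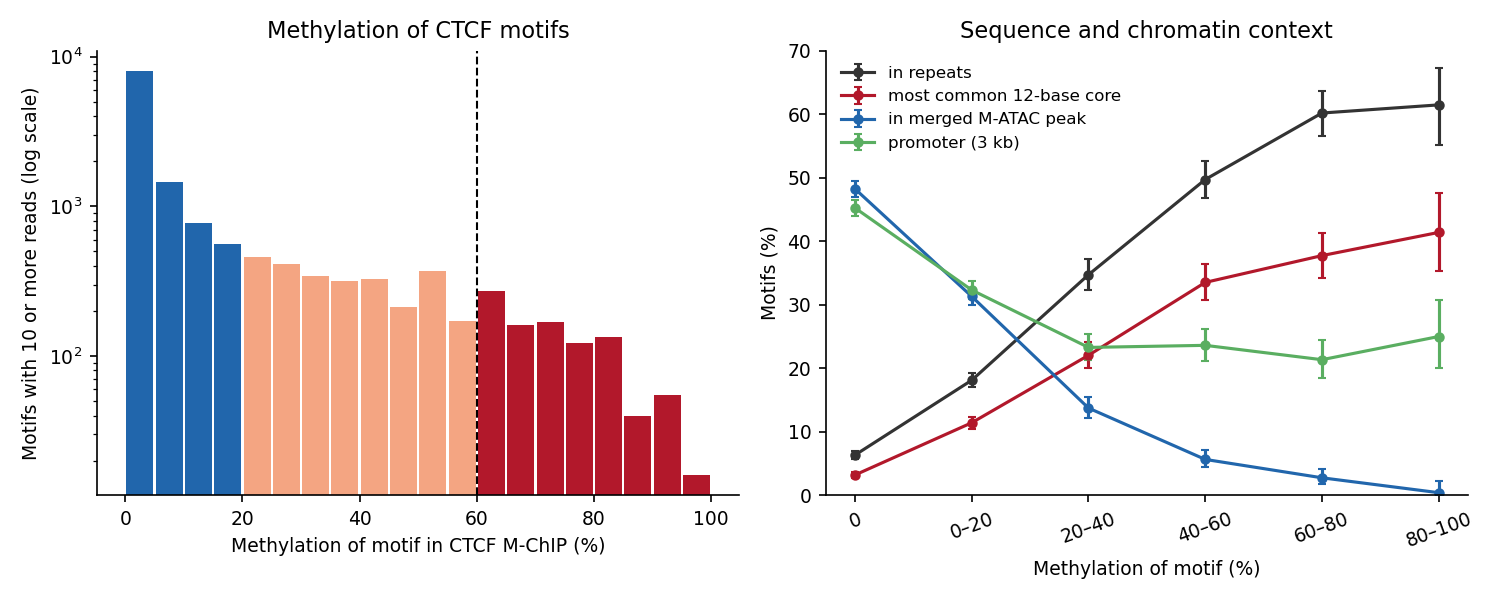
Left, number of motifs with 10 or more reads (log scale) by methylation in CTCF M-ChIP in steps of 5 percentage points, with the dashed line at 60%. Right, share of motifs in repeats, with the most common 12-base core, in a merged M-ATAC peak and at a promoter, by methylation, with 95% Wilson intervals. The share in repeats climbs from 6.34% at 0 methylation to 61.5% at 80 to 100%, and the share in M-ATAC peaks goes from 48.2% to 0.410%.

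Repeats held most of the highly methylated motifs. Of the 970, 587 (60.5%, 57.4 to 63.5) had at least 50% of their bases soft-masked, the mark of interspersed and simple repeats in the reference, against a background of 19.8% of all 14408 motifs, 40.9% of the intermediate and 11.1% of the low. In 499 of the 970 (51.4%) every base was masked, beside 16.3% of all motifs. No test was run on this difference, since the tables are merged and motifs are not replicates.

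A single 12-base core made up much of this repeat group. The core ccagaagagggc stood in 375 highly methylated motifs (38.7%), against 12.3% of all motifs, 26.8% of the intermediate and 6.51% of the low. It was also the most frequent core of all motifs, with 1779 motifs, of which 99.6% lay in repeats and 21.1% (19.2 to 23.0) were highly methylated. Cores that differ by a few letters had shares on both sides of this: tcagaagagggc was highly methylated at 14 of 54 loci (25.9%, 16.1 to 38.9), ccagaagatggc at 13 of 68 (19.1%), ccagaagggggc at 32 of 203 (15.8%), ccagcagagggc at 29 of 401 (7.23%), and ccaccagggggc, with 270 loci, at 0, which allows a share of up to 1.11% (3 counts of the total, counting error only). The core was picked after its frequency was seen, and the repeat family of each locus was not analysed here. The 31 bases centred on the motif occurred once in the genome at 501 of the 587 highly methylated motifs in repeats (85.3%), at 879 of all 970 (90.6%) and at 97.6% of the low.

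The same sequence did not have 1 methylation level. Loci with repeated motif 1 had a median methylation of 35.3%, and 28 of them (20.1%) were highly methylated, from 60% to 90.9%. Of 99 loci with repeated motif 2, 25 were highly methylated (25.3%). For repeated motif 3 the number was 20 of 127 (15.7%), and for repeated motif 4 it was 19 of 63 (30.2%), where the median over all loci was 50%. At some loci of repeated motif 4 the 31 bases centred on the motif occur 129 or 252 times in the genome, so their reads are uncertain. Loci of identical 19-base sequence thus stood on both sides of the limit. In all, the 970 motifs had 723 distinct sequences and 300 distinct cores.

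The position of the CpG inside the motif also differed between the classes. Cytosines called C2 and C12, at motif positions 5 and 15, have been of interest for CTCF binding. A CpG at position 15 was present in 748 highly methylated motifs (77.1%) and in 74.4% of the low. By contrast, a CpG at position 5 was present in 15 highly methylated motifs (1.55%), in 3.76% of the intermediate and in 18.5% of the low. At position 18 the order was the other way round, with 134 highly methylated motifs (13.8%) and 5.89% of the low. Bases at other positions differed as well, and A stood at position 8 in 63.6% of the highly methylated motifs and 21.7% of the low.

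Among highly methylated motifs, methylation was high at nearly every position of the CpG. The choice of motifs favours this, since in the 816 motifs with a single CpG with reads the chosen value is that of the position. The values by position thus largely restate the choice. The exception was position 6, with reads in 1 motif, where 4 of 9 reads were methylated (44.4%, 18.9 to 73.3). At position 15, 8137 of 11400 reads were methylated (71.4%, 70.5 to 72.2), and at position 18 it was 74.1%. At position 5, 137 of 196 reads were methylated (69.9%, 63.1 to 75.9). Only 6 highly methylated motifs had reads at both C2 and C12, with 44 of 69 methylated reads at C2 (63.8%) and 35 of 48 at C12 (72.9%). Most motifs, 816 of 970 (84.1%), had a single CpG with reads, beside 84.9% of the intermediate, 66.2% of the low and 70.8% of all motifs.

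**Figure D2:**
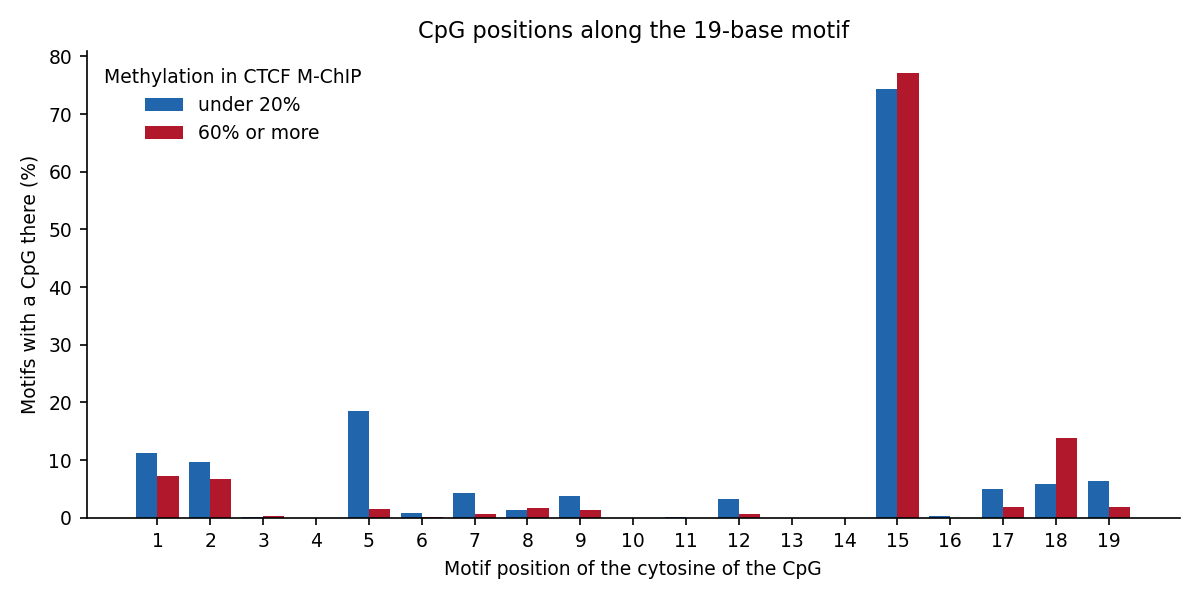
Percent of motifs that have a CpG with reads at each position of the 19-base CTCF motif, for motifs methylated at 60% or more (red) and under 20% (blue). Position 15 (C12) leads in both, with 77.1% and 74.4%, and position 5 (C2) is at 1.55% and 18.5%.

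Within single motifs, the cytosines on the motif strand and their partners on the opposite strand could be compared, summed over the CpGs of a motif. The choice of motifs used the sum of both strands, which limits how far they can differ, and the test takes that sum as given. Fisher's exact test, two-sided, was run on 12183 motifs with 5 or more reads on each strand, of which 0 passed an adjusted p of 0.05 (Benjamini-Hochberg over all motifs), a background of 0%. Of 685 highly methylated motifs tested, 0 passed, and 52 had an unadjusted p under 0.05 (7.59%), against 228 of all motifs (1.87%) and 6.42% of the intermediate. Motifs with few methylated reads can hardly reach a small p, and at this depth a count of 0 does not show that the strands were equal. The 4 motifs with the smallest unadjusted p were named after their values were seen. In the motif near Cfap43, 0 of 6 reads were methylated on the motif strand and 10 of 10 on the opposite strand (exact p = 0.000125, adjusted p = 1). Near Gm11728 the shares were 9 of 24 and 23 of 26 (exact p = 0.000287), near Fcgr1 9 of 21 and 14 of 14 (exact p = 0.000613), and near Ptafr 15 of 15 and 4 of 11 in the other direction (exact p = 0.000502). The motifs near Cfap43 and Fcgr1 hold more than 1 CpG. A read that spans them counts for each, so the exact p of these motifs may be too small.

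Summed over the highly methylated motifs, methylation was 68.1% (67.1 to 69.1) on the motif strand and 75.9% (74.9 to 76.8) on the opposite strand. The opposite strand was higher in 567 of 954 motifs with reads on both strands, the motif strand in 350, and 37 were equal. The intermediate motifs had the same order, with 32.2% and 40.6%, and so did the low, with 2.38% and 2.98%. No p is given for these sums.

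CTCF occupancy was read from the MACS2 peaks of each sample, which give a fold enrichment over local background. All 970 motifs lay in a merged M-ChIP peak, as the list of motifs requires. In single samples, 819 (84.4%) lay in a peak of CTCF M-ChIP replicate 1 and 679 (70%) in one of replicate 2, where 94.1% and 81.5% of all motifs did. The unconverted controls held 453 (46.7%) and 692 (71.3%), beside 72.1% and 87.1% of all motifs. CTCF ChIP, which uses no bisulfite and did not choose the motifs, held 913 (94.1%) and 962 (99.2%), beside 98.1% and 99.7%. In each of the 6 CTCF samples the highly methylated motifs were in peaks at a lower share than the low ones, from 99.2% and 99.8% in CTCF ChIP replicate 2 to 46.7% and 77.4% in M-ChIP-NC replicate 1. By read depth, in the 4 samples of CTCF ChIP and M-ChIP-NC and 4 read classes, the share was lower at the highly methylated motifs in 13 of 16 cases. In M-ChIP-NC replicate 1 it was 31.9% and 54.0% at 10 to 14 reads and 80% and 89.9% at 30 or more, and in ChIP replicate 1 it was 89.6% and 95.3% at 10 to 14 reads. The other 3 cases were in ChIP, where nearly all motifs were in a peak: both replicates held 100% of the 55 highly methylated motifs with 30 or more reads, beside 99.7% and 99.9% of the low, and replicate 2 held 100% and 99.9% at 20 to 29. Both unconverted controls held 396 (40.8%), beside 68.1% of all motifs, and without M-ChIP-NC replicate 1 the share was 71.3%. In a peak of both CTCF ChIP samples were 910 of 970 (93.8%), beside 98.0% of all motifs. In a peak of all 6 CTCF samples were 326 (33.6%), beside 60.8% of all motifs, and 1 was in none. The depth of each library is not given in peak lists, which held between 22261 regions (M-ChIP-NC replicate 1) and 49633 (ChIP replicate 2).

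**Figure D3:**
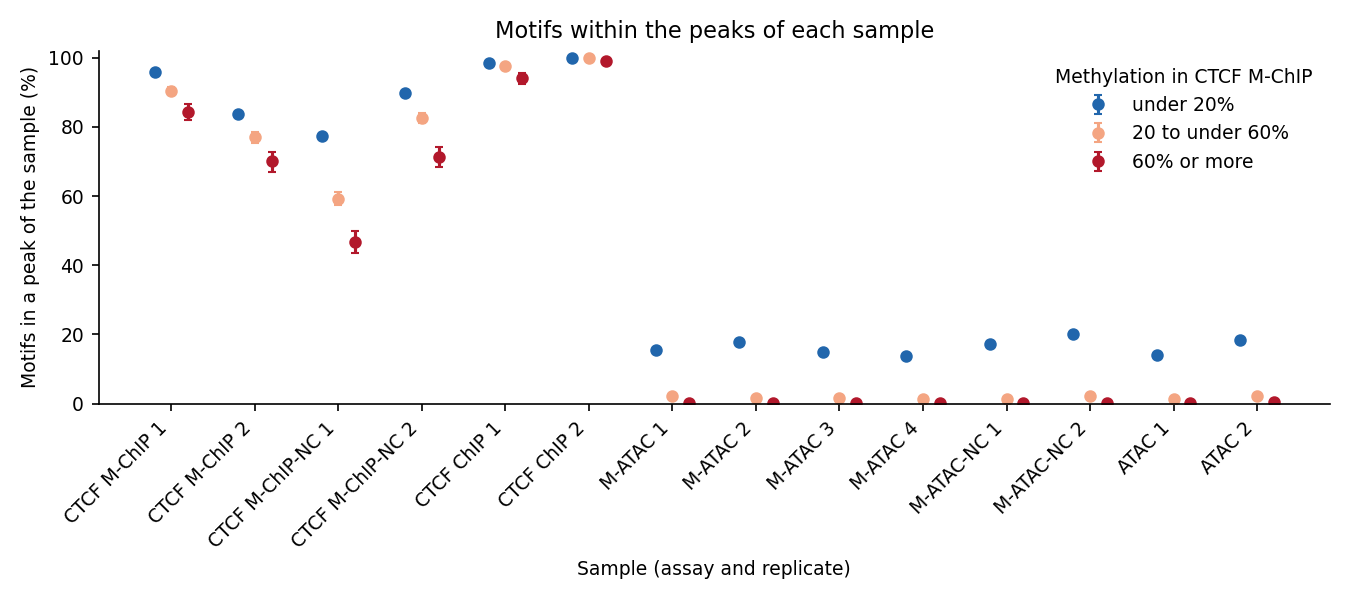
Percent of motifs inside a peak of each sample, for motifs methylated under 20% (blue), 20 to under 60% (light) and 60% or more (red) in merged CTCF M-ChIP, with 95% Wilson intervals. The highly methylated motifs sit between 46.7% and 99.2% in the 6 CTCF samples and under 1% in the 8 accessibility samples.

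Taken over all read depths, the enrichment at highly methylated motifs was lower than at the low ones but well within the same range. In the merged M-ChIP list the median fold was 9.87 (95% order-statistic interval 9.61 to 10.04), with quartiles of 7.84 and 12.2, and it was 11.98 for the low motifs (11.9 to 12.1). The intermediate motifs lay between them, at 10.57 (10.4 to 10.7). In the single samples the medians for highly methylated and low motifs were 7.94 and 10.03 in M-ChIP replicate 1 and 7.06 and 8.09 in replicate 2. They were 6.81 and 8.0 in M-ChIP-NC replicate 1, and 7.56 and 8.85 in replicate 2. In CTCF ChIP they were 10.3 and 12.9 in replicate 1, and 13.4 and 16.4 in replicate 2. All 6 samples had the lower median at the highly methylated motifs, at 0.791 to 0.873 times the median of the low motifs, among motifs in a peak of that sample. The intermediate motifs were also under the low ones in each sample, with 8.72 in M-ChIP replicate 1 and 14.7 in ChIP replicate 2.

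Read depth moved with this difference, and its part was not tested. Motifs with fewer reads had a lower fold, and the highly methylated motifs had fewer reads. At 10 to 14 reads the median merged fold was 8.58 for 461 highly methylated motifs and 8.96 for the low. It was 10.5 and 10.4 at 15 to 19 reads, 12.3 and 12.4 at 20 to 29 reads, and 15.8 (14.5 to 17.1) against 14.5 (14.3 to 14.7) for the 55 and 4183 motifs with 30 or more. The mean of the differences in these 4 read classes was 0.245, with the sign reversed from the difference over all depths (-2.11). This mean gives each class the same weight, and the largest difference was in the class with 55 highly methylated motifs. In 10 to 14 and 20 to 29 reads the highly methylated motifs had the lower median, so no reversal is read from the mean. Reads and merged fold come from the same libraries, and the reads were used to choose the motifs. In CTCF ChIP replicate 1, a separate library, the medians were 9.28 and 9.85 at 10 to 14 reads, 10.8 and 11.1 at 15 to 19, 12.3 and 12.99 at 20 to 29, and 15.8 and 15.2 at 30 or more, where the order turned. In replicate 2 they were 11.96 and 13.3, 14.04 and 14.5, 15.5 and 16.6, and 18.94 and 18.97. In M-ChIP-NC replicate 1 they were 6.12 and 6.60, 6.47 and 7.01, 7.58 and 7.77, and 8.60 and 9.18, and in replicate 2 they were 6.72 and 7.26, 7.59 and 7.89, 8.61 and 8.88, and 10.1 and 10.02. The highly methylated motifs thus had the lower median in 14 of these 16 cases, and the exceptions were at 30 or more reads in ChIP replicate 1 and M-ChIP-NC replicate 2.

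**Figure D4:**
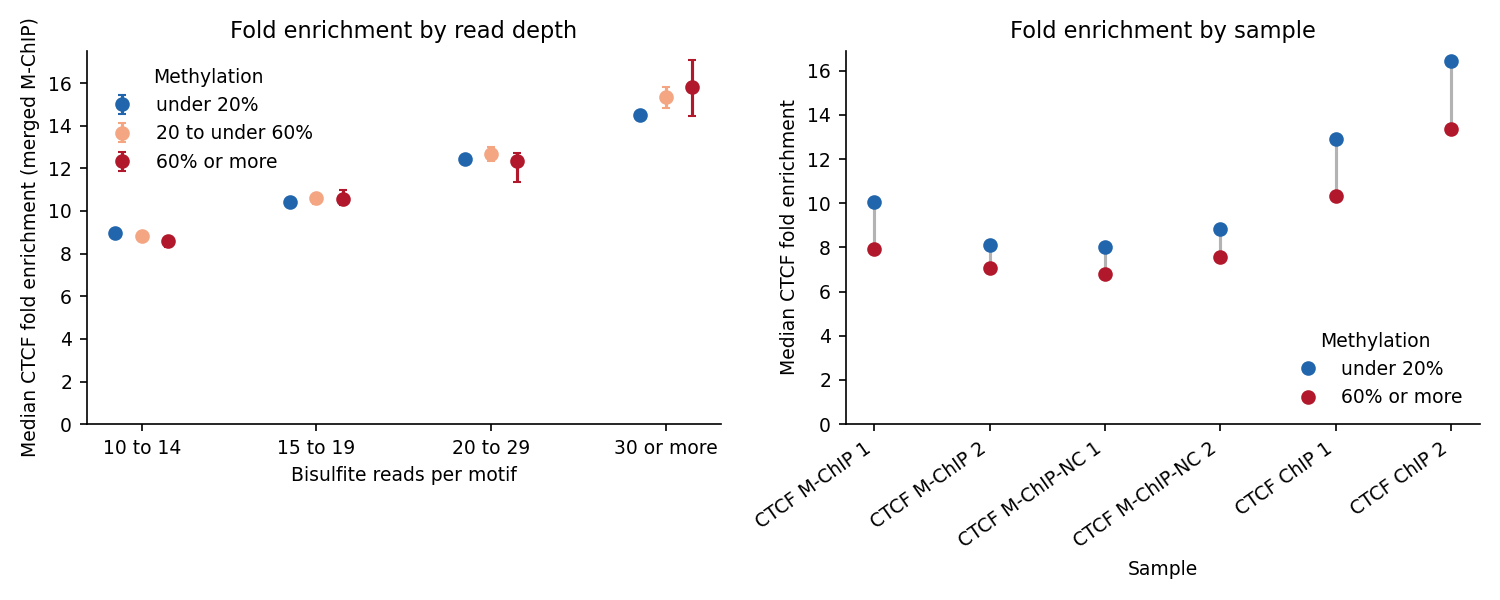
Left, median CTCF fold enrichment in merged M-ChIP by bisulfite reads per motif and methylation, with 95% order-statistic intervals. Right, median fold in each CTCF sample for motifs in its peaks. The medians of highly methylated (red) and low motifs (blue) run from 8.58 and 8.96 at 10 to 14 reads to 15.8 and 14.5 at 30 or more, and in all 6 samples the red point lies under the blue one.

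Whether enrichment changed between assays at single motifs was tested with limma on log2 fold, each library centred on its median, over 8759 motifs in a peak of all 6 CTCF samples, 326 of them highly methylated. For M-ChIP minus M-ChIP-NC, 0 motifs passed an adjusted p of 0.05 (limma, a background of 0%), and 26 of the 326 had an unadjusted p under 0.05 (7.98%), beside 6.66% of all. For M-ChIP minus ChIP, 0 passed too (a background of 0%), with 27 of 326 (8.28%) beside 7.34% of all at the unadjusted limit. The median log2 difference of the highly methylated motifs was 0.06 in the first comparison and -0.03 in the second, beside 0.00 and 0.03 over all motifs. Single libraries moved these values. Without M-ChIP replicate 1 the counts at the unadjusted limit were 48 and 57 of the 326 (beside 12.3% and 14.5% of all motifs), with the lone M-ChIP sample assumed to vary like the other groups. Without either ChIP replicate they were 13 (3.99%, beside 3.85% of all motifs) and 10 (3.07%, beside 2.63% without replicate 1 and 1.92% without replicate 2), with the same assumption for the lone ChIP sample. The first median was -0.03 without M-ChIP replicate 2 and -0.01 without M-ChIP-NC replicate 1, and the second was 0.06 without M-ChIP replicate 1, so neither direction held. Asking for a peak in all 6 samples left out 644 highly methylated motifs, and with 2 samples a group a count of 0 does not show that the folds were equal.

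Strong CTCF peaks and high methylation were measured together at some loci. The highest merged fold, 26.7, was at an intronic motif of Ift80, which codes for a protein of transport in cilia (chr3:68935714-68935732), where 41 of 64 reads were methylated (64.1%, 51.8 to 74.7). Its fold was 27.1 and 14.7 in the M-ChIP samples, 15.9 and 22.5 in the unconverted controls, and 25.1 and 35.5 in CTCF ChIP. All 6 samples thus had a peak there. Next came a motif 2518 bp from a start of Wasf3, an organiser of actin, with a merged fold of 23.6 and 24 of 39 reads methylated (61.5%, 45.9 to 75.1). Its folds were 19.5 and 15.4 in M-ChIP, 7.59 and 13.2 in the controls, and 15.9 and 18.99 in ChIP. The motif near Gm42980 had a fold of 23.5 and 19 of 29 methylated reads, that in Sh3bp4 22.3 and 13 of 16, and that in Sox5 21.9 and 11 of 17. The lower bounds of methylation of these last 3 lay between 41.3% and 57%. The Gm42980 motif lay 155 bp from the summit and had a motif score of 8.48. The medians of the highly methylated motifs were 16 bp and 16.8, so the fold need not be that of the Gm42980 motif.

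The 5 motifs with the highest lower bound of methylation had merged folds from 8.80 to 17.6, and 3 of them lacked a peak in at least 1 CTCF sample. The motif near n-R5s175 had 32 methylated reads of 34 (94.1%, 80.9 to 98.4) and a merged fold of 10.97, with a fold of 7.81 in M-ChIP replicate 1, no peak in replicate 2, no peak in the first control, 6.67 in the second, and 9.997 and 16.7 in ChIP. Near Gcnt3, a glycosyltransferase gene listed at 0.07 TPM, 23 of 24 reads were methylated (95.8%, 79.8 to 99.3). Its fold was 6.21 and 5.58 in M-ChIP and 8.21 and 10.5 in ChIP, with no peak in either control, and it was the 1 motif of these 5 with no soft-masked base. The Gcnt3 motif is a weak match, with a motif score of 7.85. The lowest score among the highly methylated motifs was 7.79 and their median 16.8. The intronic motifs of Il1r1, the interleukin 1 receptor, of Myh14, a non-muscle myosin heavy chain, and of Poc1a, a centriole protein, had 15 methylated reads of 15 each (100%, 79.6 to 100). The motifs of Poc1a, n-R5s175 and Gcnt3 hold 2 CpGs each, which can make their intervals too narrow and raise them in this ranking. Il1r1 and Myh14 had a peak in all 6 CTCF samples, from 4.95 to 14.9 and from 5.26 to 18.4 in fold. Poc1a lacked a peak in M-ChIP replicate 2 and M-ChIP-NC replicate 2. Its fold was 5.19 in M-ChIP replicate 1, 14.04 in M-ChIP-NC replicate 1, and 25.01 and 21.5 in ChIP. Its merged fold of 17.6 was over the upper quartile of the highly methylated motifs. The summit lay 194 bp from the Poc1a motif, where the median of the highly methylated motifs was 16 bp, so the fold need not be that of this motif. The Myh14 sequence of 31 bases occurs 4 times in the genome, so its reads are uncertain.

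In Ctcfl, 6 motifs of near-identical sequence stood 32 bp apart in 1 peak region. The 3 with 10 or more reads are the Ctcfl motifs 1, 2 and 3 above, methylated on 12 of 18 (66.7%), 18 of 23 (78.3%) and 13 of 14 reads (92.9%). The other 3 had 7, 1 and 9 reads, too few to enter. At the 3 highly methylated motifs the fold was 11.5 and 7.24 in M-ChIP, 5.96 and 5.68 in the controls, and 10.5 and 10.1 in ChIP, so all 6 samples had a peak. The 31 bases around motif 3 occur 4 times, and those around motifs 1 and 2 once. The nearest start is that of Ctcflos, so the rule for named genes did not pick these motifs, and they were chosen after their values were seen.

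The highly methylated motifs were almost absent from accessible chromatin as the assays measured it. Which of the 4 M-ATAC samples went into the merged M-ATAC peaks and methylation values is not given in the sources used here. In the merged M-ATAC list, 21 of 970 (2.16%, 1.42 to 3.29) lay in a peak, against a background of 33.2% of all motifs, 10.4% of the intermediate and 41.4% of the low. In single M-ATAC samples, 2, 3, 1 and 1 of them lay in a peak, beside 12.1%, 13.6%, 11.6% and 10.5% of all motifs. M-ATAC-NC held 3 and 3, beside 13.2% and 15.5%, and ATAC held 3 and 6, beside 10.8% and 14.4%. The shares were thus from 0.103% to 0.619% in 8 samples, where the low motifs ranged from 13.7% to 20.1%, and the 2 ranges did not overlap. None of the 970 was in a peak of all 4 M-ATAC samples, which allows a share of up to 0.309%, beside 5.79% of all motifs and 0.307% of the intermediate, so at this depth the highly methylated and the intermediate motifs cannot be told apart there. The part of read depth and of repeats in the low share was not tested. At 30 or more reads, 0 of 55 highly methylated motifs were in a merged M-ATAC peak, which allows up to 5.45%, and 50.8% of the low were. Outside repeats, 3.66% of 383 highly methylated motifs and 44.9% of the low were in such a peak.

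M-ATAC reads covered the cytosines of 20 of the 21 motifs, each with 5 to 19 reads, and gave a second reading of methylation that the choice of motifs did not use. At cytosines with 5 or more reads, 82 of 180 M-ATAC reads in 17 motifs were methylated (45.6%, 38.4 to 52.8), where the same motifs had 68.4% in M-ChIP. The background was 1.72% for all motifs in M-ATAC, 23.3% for the intermediate and 1.11% for the low. These values count the CpG that a pair of overlapping motifs in Osbpl11 share for each of them. Counted once, 77 of 164 reads in 16 motifs were methylated (46.95%). Of the 20 motifs, 11 were at 50% or more and 0 were under 20%. The M-ATAC value was under the M-ChIP value in 18 of 20 (17 of 19 with the pair counted once), and since the motifs were picked for a high M-ChIP value this was not tested. Other cytosines within 150 bp with 5 or more reads had 155 of 516 M-ATAC reads methylated (30.0%, 26.2 to 34.1), against 18.3% (17.5 to 19.1) around the intermediate motifs and 1.34% around the low motifs.

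The accessible motifs with the most M-ATAC reads were few and shallow. In Gm21056 (chr12:101102868-101102886) 15 of 22 M-ChIP reads and 11 of 19 M-ATAC reads were methylated (57.9%, 36.3 to 76.9), with an M-ATAC peak in replicate 1 at a fold of 7.51 and an ATAC peak in replicate 1 at 5.60. An exon of Osbpl11, of the oxysterol-binding protein family, held a pair of overlapping matches on opposite strands that share a CpG, with 9 of 12 and 5 of 16 methylated reads and no peak in any single accessibility sample. Of the CTCF samples only those of ChIP had a peak at this pair, with folds of 7.68 and 9.17. The merged M-ChIP fold there was 6.05. In an untranslated region annotated to both Eef2kmt and Alg1, 16 of 26 M-ChIP and 8 of 16 M-ATAC reads were methylated. An intronic motif of Nectin1, a cell adhesion gene, had 15 of 24 and 9 of 15 methylated reads, and was in a peak of M-ATAC replicates 2 and 4 and M-ATAC-NC replicate 1. Over all 20 motifs with M-ATAC reads, M-ATAC methylation ran from 20% (3 of 15 reads) to 100% (10 of 10 reads). None of the 21 had the core ccagaagagggc.

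**Figure D5:**
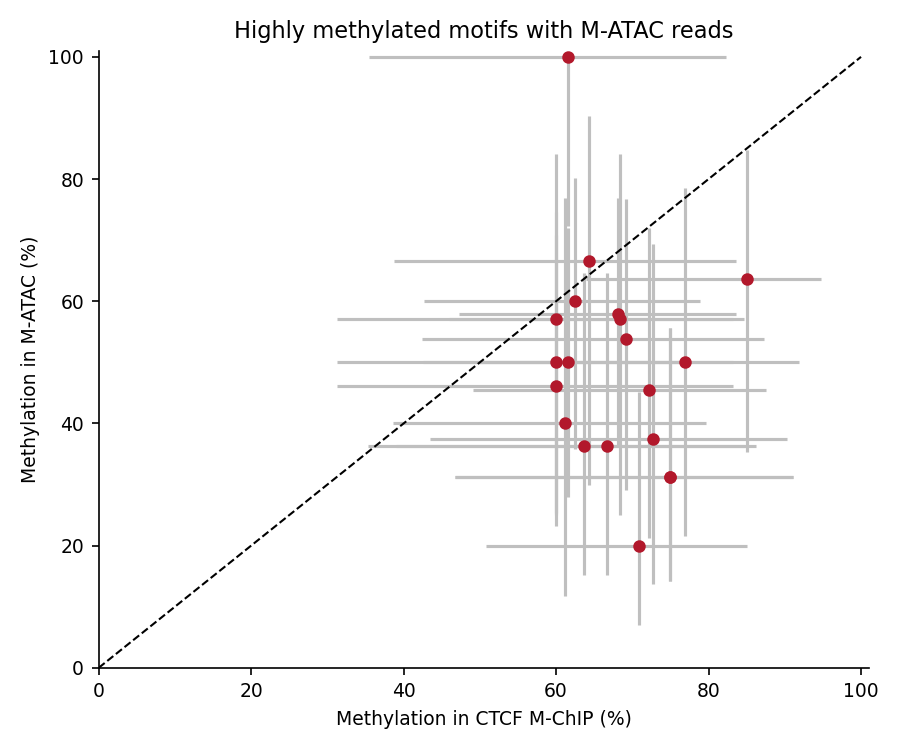
Methylation in CTCF M-ChIP (x axis) and in M-ATAC (y axis) for the 20 highly methylated motifs with M-ATAC reads, with 95% Wilson intervals; the dashed line marks equal values. 18 of 20 points lie under the line and none is under 20% in M-ATAC.

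Along the genome, 515 of the 970 motifs (53.1%) lay in introns, 376 (38.8%) between genes, 59 (6.08%) in exons and 20 (2.06%) in untranslated regions of GENCODE M21, beside 38.2%, 47.5%, 8.63% and 5.61% of the low motifs. For the intermediate motifs the shares were 49.4%, 41.1%, 6.71% and 2.76%, and for all motifs 41.3%, 45.8%, 8.11% and 4.85%. Promoters, taken as 3 kb around a transcription start, held 216 (22.3%, 19.8 to 24.99), against a background of 35.8%, 23.4% of the intermediate and 40.04% of the low. With promoters taken as 1 kb it was 7.63%, against 21.0% of all motifs, 9.05% of the intermediate and 25.1% of the low. The sequence around them was poorer in G and C than at the low motifs: median GC over 300 bp was 45.7% with 4 CpGs, against 50.7% and 6 CpGs. The intermediate motifs were close to them, with 47% and 4 CpGs. Chromosome 5 had the highest share of highly methylated motifs, with 123 of 1159 (10.6%, 8.97 to 12.5), and chromosome X the lowest, with 9 of 206 (4.37%, 2.32 to 8.09). Within chromosome 5 the stretch from 140 to 150 Mb had 38 of 194 motifs (19.6%) and the stretch beyond 150 Mb 9 of 34 (26.5%). The core stood in 24.7% and 29.4% of the motifs of these stretches, and its part in the difference was not tested. Similar shares were found elsewhere among 170 stretches with 30 or more motifs. From 140 Mb on chromosome 6 it was 13 of 65 (20%), and from 70 Mb on chromosome 12 it was 10 of 56 (17.9%).

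The genes nearest to highly methylated motifs ran from genes listed at 0 TPM to highly expressed ones. The 970 motifs had 879 distinct nearest genes, and 853 motifs had one with an expression value. Their median was 1.06 TPM (0.590 to 1.91), beside 0.960 for the intermediate and 1.56 for the low, and 428 of 853 (50.2%) were at 1 TPM or more, beside 53.1% of the low. A further 228 (26.7%) were listed at 0, beside 22.6% of the low. These include noncoding genes: 548 of the 970 motifs were nearest to a protein-coding gene. With the nearest protein-coding gene in place of the nearest gene, the medians were 8.59 TPM for the highly methylated, 7.55 for the intermediate and 6.12 for the low, so the order between highly methylated and low turned. The expression table is a merged value with no spread. At promoters, the genes with the highest expression were Psma3, a proteasome subunit (440 TPM, with 8 of 12 reads methylated), Myl12b, a myosin light chain (378 TPM, 11 of 14), Cse1l, which returns importins to the cytoplasm (219.8 TPM, 17 of 21), Tpm1, a tropomyosin (182 TPM, 9 of 11), and Myh9, a non-muscle myosin heavy chain (168 TPM, 14 of 21). These motifs lay from 533 to 2231 bp from the start, and the Psma3 and Tpm1 motifs carried the core ccagaagagggc.

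The gene lists held too few motifs to set their shares apart from the background, where 970 of 14408 motifs (6.73%) were highly methylated. Near imprinted genes, 1 of 29 motifs was highly methylated (3.45%), in an intron of Commd1 at 6189 bp from the start of Zrsr1, an imprinted splicing factor gene, with 10 of 15 methylated reads. For pluripotency genes it was 1 of 14 (7.14%), 23355 bp from Dppa3, a protector of methylation in the early embryo, with 10 of 15 reads. For the DNA methylation machinery it was 1 of 6 (16.7%), in an intron of Dnmt3a, a de novo DNA methyltransferase (67.5 TPM), with 8 of 13 reads. Of 8 motifs nearest to Hox genes, and of 15 nearest to CTCF, its paralog and cohesin, 0 were highly methylated, which with so few motifs allows shares of up to 37.5% and 20%, and the Ctcfl motifs above are nearest to Ctcflos. No motif was nearest to the germline genes silenced by promoter methylation.

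The expression table was checked against the cell label. All 7 mESC markers were over 1 TPM, with a summed level of 7784 TPM, led by Dppa5a (5394 TPM) and with Pou5f1 at 657 TPM and Nanog at 461 TPM. Of 7 fibroblast markers of the feeder layer, 6 were over 1 TPM, with a summed level of 205 TPM, led by Acta2 (85.3 TPM), then Col1a1 (48.7 TPM), and with Twist2 at 0.430 TPM. The part of feeder cells left after pre-plating in the methylation values was not tested.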

How the data were processed

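Members and lists were chosen with earlier results of these data known. The authors trimmed reads (Trim Galore 0.4.4), aligned them to mm10 with Bismark 0.18.1 (M-ATAC and M-ChIP) or Bowtie2, and removed low-quality reads and duplicates with SAMtools 1.3. The aligner of the unconverted controls is not given in the sources used here. MACS2 peaks deposited by the authors hold a score, a ratio (fold enrichment), a −log10 p and a −log10 q-value per summit. The authors' methylation tables hold methylated and unmethylated read counts and a percent per cytosine, with replicates merged. The deposited motif list holds a FIMO score and p-value for MA0139.1. The authors' expression values are TPM of merged replicates.

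Counts were summed over the cytosines of each motif. A motif took the summit nearest to it among overlapping peaks. Repeats were soft-masked bases of the RefSeq GRCm38 sequence, with genes from GENCODE M21. M-ATAC cytosines needed 5 reads in pooled values, and 1 for single motifs. Intervals were 95% Wilson or order-statistic intervals. Fisher's exact tests and limma 3.58.1 (R 4.3.3) were adjusted by Benjamini-Hochberg over all motifs and tested on simulated data. Named were the 5 motifs with the highest lower bound, fold, M-ATAC reads and promoter TPM, those nearest to listed genes, 3 on each side of the threshold, and up to 5 called by each test, chromosome 18 aside. Scripts ran in python 3.11.15 with scipy 1.17.1 and pandas 2.3.3. KLF4 samples were not analysed here.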

Additional observations from a re-analysis of the deposited data

How the results depend on the processing

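The number of highly methylated motifs was 1836 with 5 or more reads, 261 with 20 or more, 1513 at 50% or more and 244 at 80% or more. Against the low motifs, the median CTCF fold differed by -3.54 with 5 or more reads, by -0.818 with 20 or more and by -2.71 at 80% or more. As the mean of the differences in 4 read classes (an alternative added after seeing the data) it was 0.245, with the sign reversed. Each class had the same weight, also that of 30 or more reads with 55 highly methylated motifs, and the cause was not tested. The median motif score differed by -1.03 with 5 or more reads and by -1.07 at a FIMO p of 1e-05 or less, from -0.459. The share in a merged M-ATAC peak was 0.410% (1 motif) at 80% or more and 1.37% at that FIMO p. M-ATAC methylation was 57.1% at 80% or more, a value that rests on the few reads of that 1 motif. Promoters held 25% at 80% or more and 7.63% when taken as 1 kb. Repeats held 68.0% at that FIMO p, 65.6% with any masked base and 57% for motifs whose 31 bases occur once (added after seeing the data). The median TPM was 16.4 for genes of 1 TPM or more and 8.59 for protein-coding genes. With a −log10 q of 5 or more, the share in peaks of both samples was 46.9% for M-ChIP, 29.1% for M-ChIP-NC, 91.3% for ChIP and 0% for M-ATAC-NC and ATAC. Without replicate 1 this share was 70% for M-ChIP, 71.3% for M-ChIP-NC and 99.2% for ChIP. Without replicate 2 it was 84.4%, 46.7% and 94.1% in the same order. All of these moved but the last, which kept its range (93.8% with both). For M-ChIP minus ChIP, 1 of 13277 motifs passed with a peak in at least 4 libraries, 34461 bp from Etv4. Its M-ChIP arm is replicate 1 alone (fold 14.1), assumed to vary like the other samples, since replicate 2 had no peak. The folds were 4.06 and 4.90 in ChIP and 4.92 in merged M-ChIP, so nothing is read from this call. With the replicate block, 0 motifs passed in both limma comparisons; the controls are aliquots of the converted reactions, but whether equal numbers mark 1 reaction is not given in the sources used here, and the deviations of M-ChIP from its group mean correlated at 0.100 with those of M-ChIP-NC and at 0.00976 with those of ChIP. In all, 63 alternative values kept their side or range, 30 moved and 1 reversed. Of the 63, 26 are counts or shares of 0, which show no stability. The peak lists give no library depth, and 461 of the 970 motifs had 10 to 14 reads, so single methylation values near 60% cannot be ordered.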
